A study of Caenorhabditis elegans with 2 samples.

Results

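Clusters of binding sites of the transcription factor MDL-1 were examined, taken as chains of 3 or more neighbouring ChIP-seq summits. A summit is the position of highest signal within a peak. In the authors' list of peaks after irreproducible discovery rate (IDR) filtering, in the ce11 build of the genome, summits were sorted along each chromosome and neighbours at most 3000 bp apart were joined. Of 3870 IDR peaks, 712 fell into 193 such chains (18.4%, exact 95% interval 17.2 to 19.7%). The remaining 3158 peaks were 2382 summits with no neighbour within 3000 bp and 776 summits in 388 pairs. Because the members were chosen by the positions of these same summits, the number, length and spacing of the chains are a description, and no test was run on them.

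The study mapped eGFP-tagged MDL-1 by chromatin immunoprecipitation and sequencing in Caenorhabditis elegans at the first larval stage (L1), from 2 biological replicates. The animals were of strain OP106, which carries the allele unc-119(ed3) on chromosome III and the insertion wgIs106 for tagged mdl-1, and whole larvae of both sexes were pooled. The series holds this 1 group, so the reference for the chains was the rest of the same IDR list. Signal from different cells of the larva cannot be told apart.

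MDL-1 is the worm's counterpart of the vertebrate MAD proteins, which pair with MAX-like partners through a basic helix-loop-helix leucine zipper. In C. elegans the partner is MXL-1, and the dimer binds the E-box CACGTG. In mammals, MAD proteins bind the same E-box as MYC and recruit the SIN3 corepressor with its histone deacetylases.

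The bases within 50 bp of 8 chain summits are shown here in ce11 (WBcel235) on the + strand, with each CACGTG in capitals. The chain at mxl-3 is shown because 4 of its 7 summits held the E-box, and the chain at Y43F8B.2 because it held the highest-scoring summit of any chain. The summits of nhr-19 and zfp-1 are the highest of their chains and show high members with no CACGTG in this window. None of the 8 windows overlapped an exon of a protein-coding gene.
mxl-3 summit 1, chrX:13348528-13348628: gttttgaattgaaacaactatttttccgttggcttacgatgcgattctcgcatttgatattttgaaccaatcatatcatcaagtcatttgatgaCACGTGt
mxl-3 summit 3, chrX:13351453-13351553: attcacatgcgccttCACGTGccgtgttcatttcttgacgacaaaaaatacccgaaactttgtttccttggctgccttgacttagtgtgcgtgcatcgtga
mxl-3 summit 5, chrX:13353629-13353729: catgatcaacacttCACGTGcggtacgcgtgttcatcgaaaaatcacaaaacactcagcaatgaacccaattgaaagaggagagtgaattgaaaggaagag
mxl-3 summit 7, chrX:13358708-13358808: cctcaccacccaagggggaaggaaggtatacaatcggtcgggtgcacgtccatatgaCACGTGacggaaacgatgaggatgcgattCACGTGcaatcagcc
Y43F8B.2 summit 4, chrV:19527714-19527814: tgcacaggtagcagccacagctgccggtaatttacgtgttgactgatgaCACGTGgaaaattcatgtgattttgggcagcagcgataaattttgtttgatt
Y43F8B.2 summit 5, chrV:19529350-19529450: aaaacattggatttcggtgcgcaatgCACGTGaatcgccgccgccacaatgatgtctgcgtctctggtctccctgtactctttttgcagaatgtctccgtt
nhr-19 summit 3, chrII:9603565-9603665: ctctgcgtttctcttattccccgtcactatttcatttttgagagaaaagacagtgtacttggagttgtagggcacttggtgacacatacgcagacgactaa
zfp-1 summit 7, chrIII:8802096-8802196: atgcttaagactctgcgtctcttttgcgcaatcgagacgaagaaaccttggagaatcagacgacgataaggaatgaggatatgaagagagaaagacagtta

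Most chains were short. Of the 193 chains, 118 held 3 summits, 47 held 4, 12 held 5, 8 held 6, 7 held 7 and 1 held 13. From first to last summit they spanned a median of 3420 bp, with a range of 938 to 14222 bp. The median distance between neighbouring members was 1256 bp (n = 519), and 182 of the 519 distances were under 1000 bp. Only 8 of the 519 neighbours had peaks that overlapped, so the chains were built almost wholly from separate peaks. The widest steps inside chains were 2985 bp at dlg-1, 2983 bp at T26A8.4 and 2982 bp at ocrl-1. The nearest summits kept apart lay 3007 bp from each other, at F41E6.5 and the chain of smk-1. Joining them would have made a run of 5 summits.

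Each summit was given to the protein-coding gene it lay within, or otherwise to the gene with the nearest 5' end. Each chain was given to the gene with most of its summits, ties going to the gene of the highest-scoring summit. The gene of a chain thus need not hold a majority of its summits. It held 3 of 6 at lpin-1, 2 of 4 at nhr-32 and 1 of 3 at nhr-17. In 114 of the 193 chains every summit went to 1 gene. In 65 chains the summits were split between 2 genes and in 14 among 3 or more. The chains thus had 188 different genes, which are 0.941% of 19973 protein-coding genes. In 41 chains every summit lay inside the gene of the chain, and in 67 every summit lay upstream of it.

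The largest chain, with 13 summits over 14222 bp, lay wholly within introns of T28B11.1 (WBGene00012117, chromosome V, 10712160 to 10732422). Its second summit, at 10715966, had a pooled score of 314 and ranked 58 in replicate 1 and 69 in replicate 2, and it held CACGTG. The score is the authors' peak caller's own value, on a scale that the sources used here do not give, so scores are compared only within a list, and sums and ratios of scores describe that list on the caller's own scale. The fifth summit, with a pooled score of 252, ranked 133 in replicate 1 and 85 in replicate 2. The other 11 summits of this chain had pooled scores between 35.3 and 155. The median over the 13 summits was 66.7, above the 58.8 of all IDR peaks. The first summit had no counterpart in replicate 2.

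**Figure D1:**
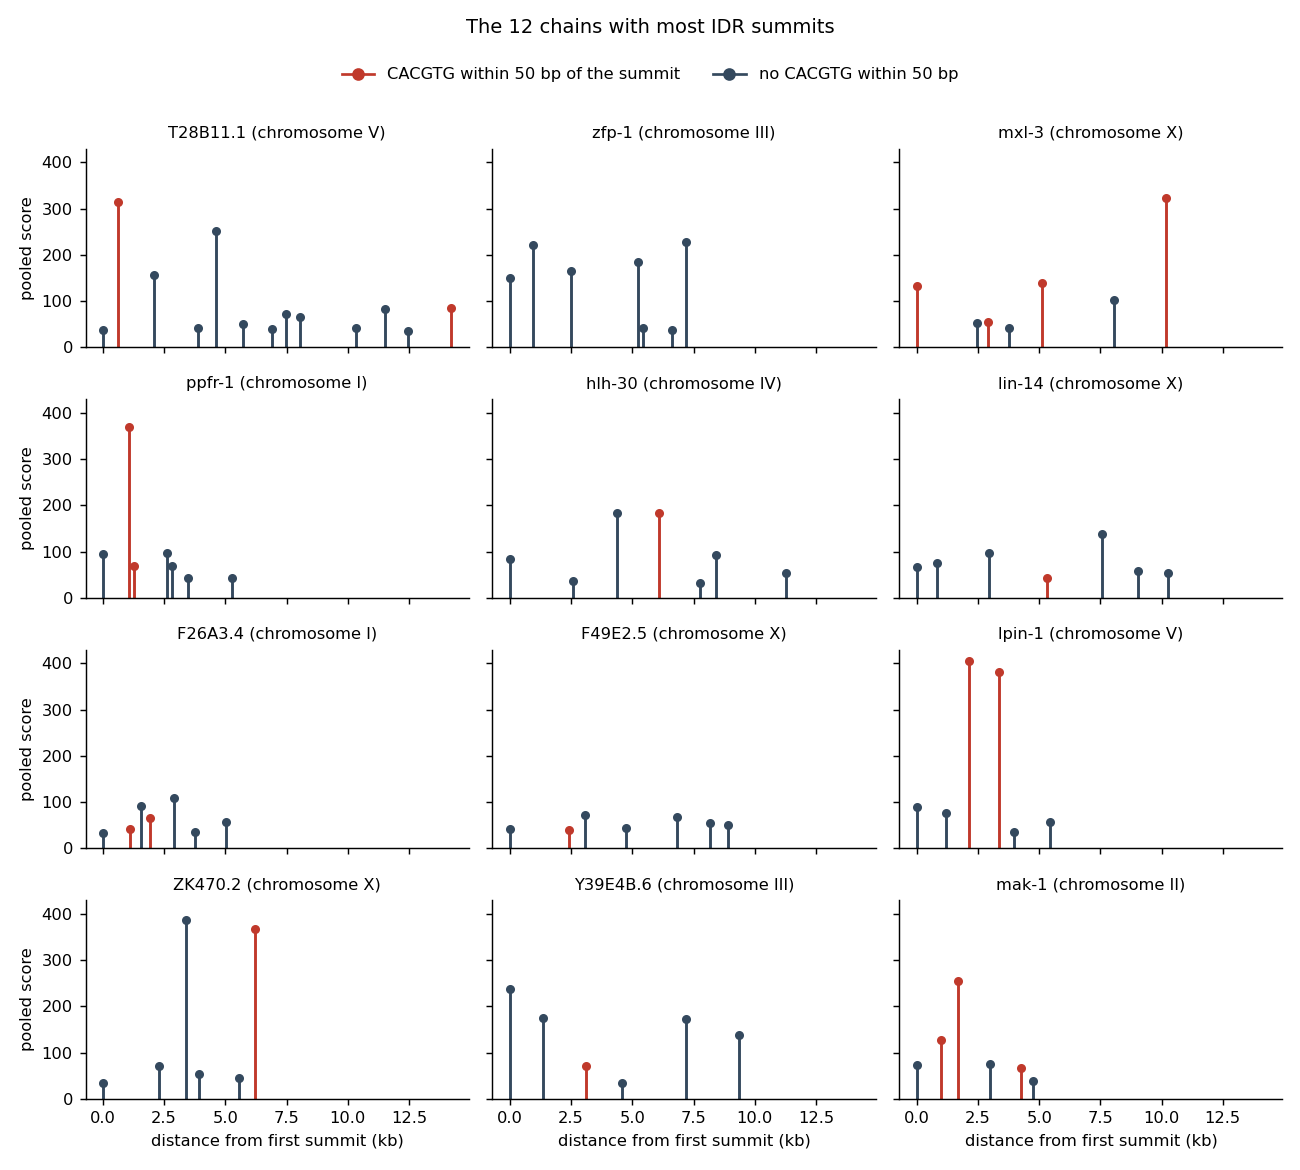
Pooled peak score (y axis, the caller's own scale) against distance in kb from the first summit of the chain (x axis) for the 12 chains with most summits (of 16 with 6 or more, ties going to the higher summed score), with summits that have CACGTG within 50 bp in red. The chain of T28B11.1 has 13 summits, its highest at a score of 314, while no summit of F49E2.5 exceeds 71.2.

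The 7-summit chains fell at genes of several kinds. Inside zfp-1 (WBGene00006975, chromosome III, 8791535 to 8806305), which encodes the worm homologue of the chromatin protein AF10, 7 summits spanned 7210 bp and none held CACGTG. Of these, 5 were high, with pooled scores of 149, 222, 165, 185 and 229, and the other two had 41.1 and 37.8. The highest ranked 248 in replicate 1 and 64 in replicate 2. The sixth summit lay in the promoter window of another protein-coding gene. The second highest, at 222, ranked 169 in replicate 1 and 150 in replicate 2, so several peaks of this chain were high in both replicates.

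In ppfr-1 (WBGene00008878, chromosome I, 9364099 to 9389982), which encodes a regulatory subunit of protein phosphatase 4, 7 intronic summits lay within 5257 bp. The second, at 9381428, scored 370.0 in the pooled list and ranked 24 in replicate 1 and 46 in replicate 2. It held CACGTG, and so did its neighbour 206 bp away, which scored 67.9. The other 5 scored from 42.6 to 97.4, so a single summit stood out here, in both replicates.

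At lin-14 (WBGene00003003, chromosome X, 11465560 to 11485871), a heterochronic gene needed for L1 cell fates, 7 summits spanned 10254 bp. They began 1019 bp upstream of the 5' end of the gene, and 5 lay in its introns. All 7 were found in both replicates. The fifth was the highest, with a pooled score of 139 and ranks of 398 in replicate 1 and 636 in replicate 2, and the fourth, with 43.2, held the chain's only CACGTG. The other 6 scored from 43.2 to 97.6, and the highest score of this chain was 3.21 times the lowest, against a median of 2.94 over all chains.

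The chains of F26A3.4 and F49E2.5, also of 7 summits, had lower highest scores. F26A3.4 (chromosome I) had scores of 33.0 to 109 over 5040 bp, mostly upstream of the gene, with CACGTG at 2 summits. F49E2.5 (chromosome X) had scores of 39.3 to 71.2 over 8922 bp of its introns, and 2 of its 7 summits had no counterpart in replicate 2. The highest summit of F49E2.5 ranked 1444 of 3870.

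Among the 6-summit chains, several held a pair of high peaks. Between lpin-1 (WBGene00010425), which encodes the phosphatidate phosphatase lipin, and letm-1, which encodes a homologue of the mitochondrial protein LETM1, 6 summits filled the shared upstream region on chromosome V from 13655414 to 13660850. The third summit scored 405 in the pooled list and ranked 21 in replicate 1 and 43 in replicate 2. The fourth, 1248 bp away, scored 381 and ranked 26 in replicate 1 and 35 in replicate 2. Both held CACGTG and lay more than 2000 bp from either 5' end, while the other 4 summits had scores of 35.99 to 88.4 and no CACGTG, and 2 of these 4 had no counterpart in replicate 2. The highest of the chain was the third summit in replicate 1 and the fourth in replicate 2.

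Introns of ZK470.2 (chromosome X) held 2 peaks of similar height among 6, with pooled scores of 388 and 367. The first ranked 45 in replicate 1 and 17 in replicate 2, and the second, which held CACGTG, ranked 23 in replicate 1 and 55 in replicate 2. The 2 replicates thus disagreed on which was the highest of the chain. Upstream of Y39E4B.6 and the divergent gene F54F12.1 (chromosome III), 6 summits were spread over 9378 bp, with scores of 238, 175, 70.3, 34.4, 172 and 138. At mak-1 (WBGene00010681, chromosome II), a MAPK-activated protein kinase gene, 6 summits spanned 4755 bp, from upstream of the gene into its coding sequence. CACGTG lay at 3 of them, including the highest, which scored 254 and ranked 123 in replicate 1 and 83 in replicate 2.

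Ordered by the sum of pooled scores over the chain, the highest were T28B11.1 (1277), Y43F8B.2 (1175), nhr-19 (1119), lpin-1 (1045) and zfp-1 (1029). They were followed by ZK470.2 (959.8), mxl-3 (848), Y39E4B.6 (828), M60.4 (809.7) and ppfr-1 (783), against a median of 281 over the 193 chains. A sum grows with the number of summits, yet the chains of Y43F8B.2 and nhr-19 held only 5.

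Y43F8B.2 (WBGene00012813, chromosome V, 19519938 to 19533110) had all 5 of its summits in introns, and 4 held CACGTG. The fifth, at 19529400, scored 629 in the pooled list, the highest of any chain member, and ranked 4 in each replicate. The other 4 scored 108, 146, 94.4 and 196, so its lowest summit was above the median of all IDR peaks, 58.8. All 5 ranked among the 3870 highest peaks of both replicates.

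At nhr-19 (WBGene00003618, chromosome II, 9598180 to 9605526), a nuclear hormone receptor gene, 5 summits spanned 4303 bp and none held CACGTG. The third scored 607 and ranked 1 in replicate 1 and 12 in replicate 2. Its neighbours scored 222, 169, 36.4 and 85.0, which gave this chain the widest spread of any, the highest score being 16.6 times the lowest. High summits also lay in 3 smaller chains. The highest summit carried 68.9% of the chain's summed score at epg-9, 56.9% at M60.4 and 56.2% at srh-2. The median of this share over all chains was 44.8%. The median score over the summits of the chain was 177 at epg-9, 158 at M60.4 and 124 at srh-2. At epg-9, an autophagy gene on chromosome IV, an intronic summit scored 502 and ranked 20 in replicate 1 and 8 in replicate 2. At M60.4 (chromosome X), the first of 4 summits scored 460.4 and ranked 12 in replicate 1 and 24 in replicate 2, in the promoter window of the neighbouring gene K02A6.3. At srh-2 (chromosome V), a serpentine receptor gene by name, the fourth of 4 summits scored 429.5 and ranked 16 in replicate 1 and 26 in replicate 2. The first summit of that chain lay 104 bp upstream of icl-1, which encodes the glyoxylate cycle enzyme.

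Summits of one chain differed in height. The highest score was a median of 2.94 times the lowest (range 1.06 to 16.6), and the highest summit carried a median of 44.8% of the chain's summed score. It lay at an end of the chain in 99 of the 193 chains. In the 118 chains of 3, only the middle summit is not an end. In 77 chains (39.9%) at least 1 summit was among the 300 highest of the 3870 IDR peaks. Each chain has 3 or more summits that can meet this count. No background was computed for either count, so neither shows a preference of chains. Chain members had a median pooled score of 62.1 (n = 712), and the other IDR peaks had 58.2 (n = 3158). In the highest 25% of the IDR list by score lay 30.8% of chain members (exact 95% interval 27.4 to 34.3%) and 23.7% of the other peaks (22.2 to 25.2%). This difference was not tested, and the intervals treat neighbouring peaks as independent. By run size, the median score was 57.5 for single summits, 60.2 for pairs, 57.8 in chains of 3, 65.6 in chains of 4, 69.6 in chains of 5 and 67.8 in chains of 6 or more.

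Most chain members, like most IDR peaks, were found in both replicates. The IDR list was made from these same replicates, so the counts are a description and not independent support. A replicate peak was counted as the same site when its summit lay within 100 bp. Replicate 1 had such a summit at 700 of the 712 members (98.3%), where the share over all IDR peaks was 98.5%, and replicate 2 at 677 (95.1%), against 95.9% over all IDR peaks. No 2 members shared a replicate summit. Among the 3870 highest peaks of the replicate's own list were 638 members in replicate 1 (89.6%, all IDR peaks 86.2%), 555 in replicate 2 (77.9%, all IDR peaks 79.5%) and 493 in both (69.2%, all IDR peaks 67.8%). Among the other IDR peaks alone, the share within the highest of replicate 1 was 85.4% (exact 95% interval 84.2 to 86.6%), below the members' interval of 87.1 to 91.8%. The intervals of chain members and other peaks overlapped in the remaining 4 counts, and none of these differences was tested.

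A chain was counted as complete only when all its summits were found, so lower shares than for single members follow from the count itself. Every summit was found in both replicates in 153 of the 193 chains, and every summit was among the highest of both in 54. At least 3 summits were among the highest of replicate 1 in 147 chains and among the highest of replicate 2 in 120. The same summit was the highest of the chain in both replicates in 128 chains (66.3%). At skn-1, an Nrf-like bZIP gene, 2 of 4 intronic summits had no counterpart in replicate 1 and only 1 was among the highest of replicate 2. The highest skn-1 summit, with a pooled score of 110.4, was one of those missing from replicate 1, so the chain there rested on unequal replicates.

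**Figure D2:**
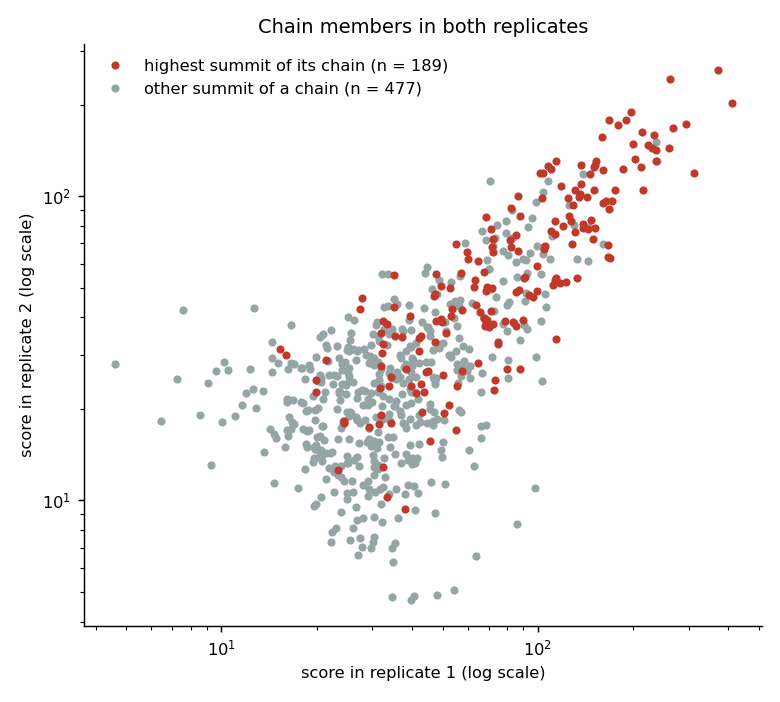
Score in replicate 2 (y axis) against score in replicate 1 (x axis), both on log scales in each list's own units, for the 666 chain members found in both replicates. The 189 highest summits of their chains (red) extend to the upper right corner, and most of the 477 other members (grey) lie lower on both axes.

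Genomic classes of chain members and of the other IDR peaks were set side by side. The promoter window began 1000 bp before the 5' end of a protein-coding gene and ended 200 bp after it. It held 198 of 712 chain members (27.8%, exact 95% interval 24.5 to 31.3%) and 1784 of 3158 other peaks (56.5%, 54.7 to 58.2%), where the share over all IDR peaks was 51.2%. Introns held 239 chain members (33.6%, 30.1 to 37.2%) and 589 other peaks (18.7%, 17.3 to 20.1%), with 21.4% over all IDR peaks. Intergenic sequence outside the windows held 250 chain members (35.1%, 31.6 to 38.7%) and 709 other peaks (22.5%, 21.0 to 23.9%), with 24.8% over all IDR peaks. Coding and untranslated exons held 12 and 13 chain members. These shares were not tested. They are also not independent of the rule, because the promoter window of a single gene is shorter than most chains. Such a window can hold all the summits of only the shortest chains, though windows of neighbouring genes together can hold longer chains.

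The change with run size went the same way at most steps. The promoter share was 59.7% for single summits, 46.6% in pairs, 34.7% in chains of 3, 28.2% in chains of 4, 10% in chains of 5 and 14.5% in chains of 6 or more. The intronic share was 16.3%, 25.9%, 25.99%, 31.4%, 43.3% and 56.4% in the same order of run sizes. In chains of 6 or more intronic summits were thus the majority, but 13 of these 62 intronic summits were of T28B11.1 alone. In chains of 5 the intergenic share, 46.7%, was above the intronic share. The last 2 classes rest on 60 and 110 summits. These came from 12 chains of 5 and from 8, 7 and 1 chains of 6, 7 and 13 summits. Summits of the same chain are not independent. A promoter summit was still part of 129 of the 193 chains, and 9 chains had all their summits in promoter windows. In 30 chains every summit was intronic and in 25 every summit was intergenic. The highest summit of the chain was in a promoter window in 68 chains, in an intron in 52 and intergenic in 68.

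**Figure D3:**
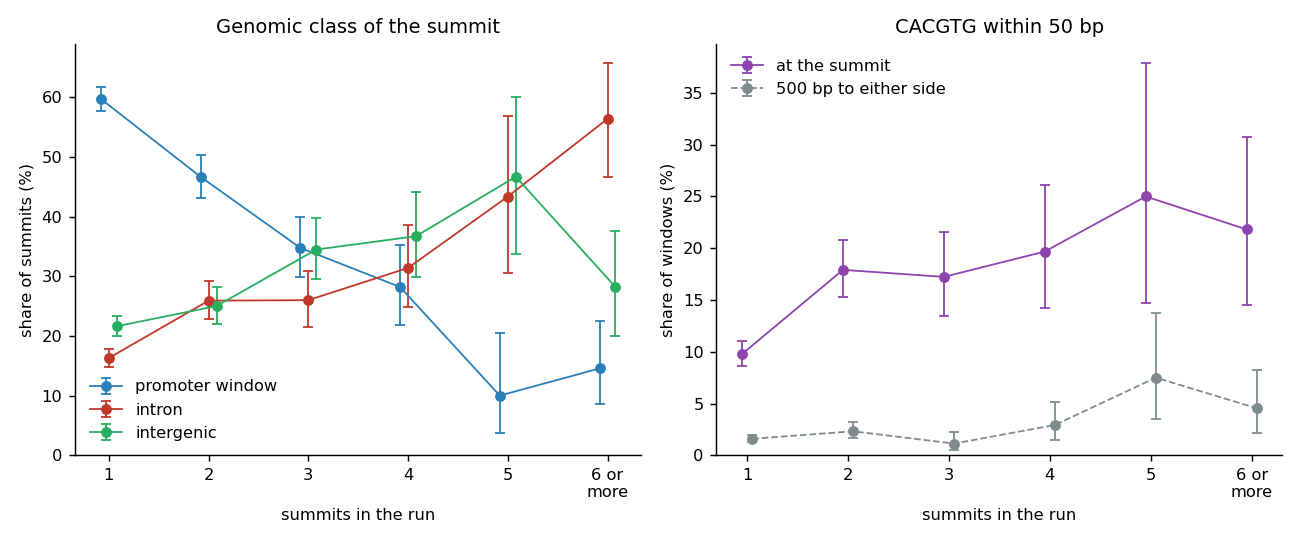
Left, share of summits (%) in promoter windows, introns and intergenic sequence against the number of summits in the run, and right, share of windows (%) with CACGTG within 50 bp of the summit and in equal windows 500 bp to either side. Bars are exact 95% intervals that treat summits of the same run as independent. The promoter share is 59.7% for single summits and 14.5% in chains of 6 or more. In runs, the moved windows can lie near a neighbouring summit.

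Some intronic summits lay near the start of an annotated transcript. Of the 239 intronic chain members, 66 (27.6%, exact 95% interval 22.1 to 33.7%) lay in the same window around the start of some annotated transcript, and so did 172 of 589 other intronic peaks (29.2%, 25.6 to 33.1%). The 2 shares overlapped in their intervals. At hlh-30, 3 of the 7 intronic summits were of this kind, and at T28B11.1 the first 2 of 13 were.

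The E-box of the MDL-1 dimer was searched at every summit. CACGTG, which reads the same on both strands, was found at most 50 bp from the summit in 137 of 712 chain members (19.2%, exact 95% interval 16.4 to 22.3%) and in 372 of 3158 other peaks (11.8%, 10.7 to 12.96%), where the share over all IDR peaks was 13.2%. In windows of the same length moved 500 bp to either side it was found in 2.67% around chain members (n = 1424 windows) and in 1.77% around the other peaks (n = 6316). Of the 519 distances between neighbouring members, 182 were under 1000 bp. A moved window can therefore lie near another summit of the chain, and is not a clean background there. Its share was 1.13% in chains of 3, 2.93% in chains of 4, 7.5% in chains of 5 and 4.55% in chains of 6 or more. The CACGTG nearest the summit was a median of 15 bp from it in chain members and 19 bp in the other peaks. The intervals of the first pair of shares did not overlap, and the differences were not tested.

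The E-box share differed with score, in the chains and outside them. In the highest 25% of the IDR list by score, 30.1% of chain members (66 of 219) and 18.2% of other peaks (136 of 748) held CACGTG. In the lowest 25% the shares were 12.99% (20 of 154) of chain members and 8.48% (69 of 814) of other peaks. Within promoter windows CACGTG lay at 16.7% of chain members and 9.47% of other peaks, in introns at 18.8% and 16.6%, and in intergenic sequence at 21.2% and 12.98%, chain members being given first in each pair. The gap between the groups was smallest in introns, where their intervals (14.1 to 24.4% and 13.7 to 19.9%) overlapped. By run size the share was 9.78% for single summits, 17.9% in pairs, 17.2% in chains of 3, 19.7% in chains of 4, 25% in chains of 5 and 21.8% in chains of 6 or more. Pairs already had nearly the share of the chains.

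Most chains did not repeat the E-box. CACGTG was found at no summit in 96 of the 193 chains, at exactly 1 in 64 and at 2 or more in 33, and no chain had it at every summit. The highest summit of the chain held it in 54 of 193 (28.0%, exact 95% interval 21.8 to 34.9%) and the other members in 83 of 519 (15.99%, 12.9 to 19.4%). The highest summits are picked by score, with which the E-box share differed, so this contrast cannot be told apart from that of score. The 6 chains with most E-box summits were those of mxl-3 and Y43F8B.2, with 4 each, mak-1, nhr-34 and Y44A6C.1, with 3 each, and T28B11.1, with 2 and the highest summed score among chains with 2. At nhr-34 (chromosome IV), a nuclear hormone receptor gene, 3 of 4 intronic summits held it, the highest with a pooled score of 233 and ranks of 116 in replicate 1 and 189 in replicate 2. Upstream of Y44A6C.1 (chromosome V), 3 of 5 summits held it, with scores of 85.5, 176 and 143.

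The bases beside the E-box varied, as the printed windows show. Counting each octamer with its reverse complement, ACACGTGA made up 25 of the 145 CACGTG copies in chain members (17.2%) and 58 of the 390 in the other peaks (14.9%). The symmetrical TCACGTGA made up 14 of 145 in chain members (9.66%) and 38 of 390 in the other peaks (9.74%). Other motifs were searched on both strands in the same windows. The alternative E-box CAGCTG was in 5.20% of chain members and 3.36% of other peaks (3.70% of all IDR peaks), and the GATA-type motif TGATAA, which can overlap CACGTG by the letters TG, in 12.4% and 9.09% (9.69% of all). ACGCGT was in 1.40% of chain members and 3.70% of other peaks (3.28% of all), TGCGCA in 2.53% and 4.46% (4.11% of all) and GAGAGAGA in 7.44% and 6.46% (6.64% of all). A match is a description of the sequence and not evidence of a bound factor.

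Chain genes were longer at the median than other genes. The 188 chain genes had a median annotated length of 5162.5 bp, while the 2727 other genes that were given an IDR summit outside the chains had 3091 bp and all 19973 protein-coding genes had 2027 bp. These groups were picked differently, since a chain gene had to hold more summits than the other genes of its chain, or tie. Among genes given any summit of either kind, the gap was smaller. The median was 3519 bp for genes given chain members (n = 279) and 3126 bp for genes given other peaks (n = 2764). Genes of the 30 chains with every summit intronic had a median of 13540.5 bp, from 8521 to 33613 bp. The longest of these was pqn-41 (chromosome III), where 4 intronic summits without CACGTG scored 151, 166, 218 and 207. Length is tied to the rule through introns, since a gene body shorter than the chain cannot hold it, and its part in the choice of genes was not tested. Short genes carried chains as well: mxl-3 is 1166 bp long, and its chain spanned 10180 bp around it.

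**Figure D4:**
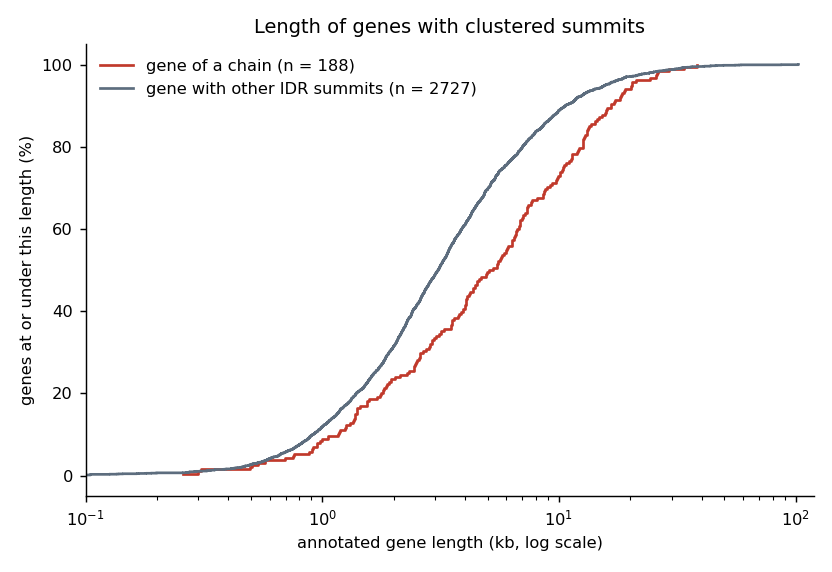
Share of genes (%, y axis) at or under a given annotated length (kb, log x axis) for the 188 genes of chains and for the 2727 other genes given IDR summits outside chains. The median is 5162.5 bp for chain genes and 3091 bp for the others.

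A few genes had 2 chains: mnk-1 with 9 summits in all, saeg-1 with 8, din-1 with 7, and nhr-46 and sma-9 with 6 each. At mnk-1 (WBGene00011304, chromosome II, 10542421 to 10555044), which encodes a MAPK-interacting kinase, 5 summits lay in introns and 4 upstream. The highest intronic summit scored 218 and ranked 268 in replicate 1 and 78 in replicate 2. The highest upstream one scored 234 and ranked 142 in replicate 1 and 132 in replicate 2, and each of the 2 chains had 1 summit with CACGTG. At din-1, which encodes a corepressor of the nuclear receptor DAF-12, 4 summits stood at and upstream of the 5' end, with scores of 46.7, 265, 139 and 141, and 3 lay deep inside the gene, with 43.2, 56.8 and 80.7. At sma-9, a Schnurri-like gene of BMP signalling, 3 summits lay upstream, the highest with 223, and 3 in introns, the highest with 137.

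Of 6 genes listed as the MAD, MAX and Mondo network, in which the TFEB gene hlh-30 was included, 3 were genes of chains: hlh-30, mml-1 and mxl-3. The share was 0.941% among all protein-coding genes and 6.27% (188 of 2998) among the genes given any IDR summit, and the 3 were also the only network genes given any IDR summit. The gene lists used here were chosen with earlier results of these data known, and 6 genes are too few to say more. The chain of mxl-3 (WBGene00003511, chromosome X, 13349639 to 13350804), a MAX-like gene, ran from 13348578 downstream of the gene to 13358758 far upstream. Its 7 pooled scores were 133, 53.0, 54.3, 42.1, 139.7, 103.5 and 322, in order along the chromosome. The printed E-box windows are those of summits 1, 3, 5 and 7, which include the 3 highest of the chain. The seventh, whose window has 2 copies of CACGTG, ranked 37 in replicate 1 and 113 in replicate 2. It was the only summit of the chain given to another gene, C49F8.15. The sixth had no counterpart in replicate 1 and ranked 356 in replicate 2, and summits 2 and 4 ranked below 3870 in replicate 2.

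At hlh-30 (WBGene00020930, chromosome IV, 4014793 to 4034951), which encodes the worm TFEB and regulates autophagy and lysosomal genes, all 7 summits were intronic and spread over 11275 bp, the longest chain of chromosome IV. Next to the summit of 183 at 4024335, the fourth summit, 1733 bp away, also scored 183 and held the chain's only CACGTG. The third ranked 235 in replicate 1 and 237 in replicate 2, and the fourth 322 in replicate 1 and 186 in replicate 2, so their order differed between replicates. The other 5 scored from 33.0 to 92.7. At mml-1, the Mondo-like gene on chromosome III, 3 summits lay 371, 901 and 1858 bp upstream of the 5' end. The farthest was by a wide margin the highest, with a pooled score of 278, CACGTG, and ranks of 92 in replicate 1 and 72 in replicate 2, against 40.8 and 49.4 for the summits within the promoter window.

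Counts in the other gene lists are given beside these 2 shares and were not tested. Of 274 nuclear hormone receptor genes, 12 were genes of chains (4.38%), with 13 chains. They were 18.2% of the 66 receptor genes given any IDR summit, against 6.27% over all genes with a summit. Beside nhr-19 and nhr-34 they included nhr-21, whose 5 summits over 7485 bp made the longest chain of chromosome II, with its highest score of 195 lying 1515 bp upstream. They also included nhr-32 (chromosome X), with a summit of 249.7 and CACGTG 313 bp upstream. The others were nhr-1, nhr-17, nhr-25, nhr-40, nhr-46, nhr-48, nhr-88 and nhr-119, and the highest summit of these chains ranged from 41.4 at nhr-25 to 349.8 at nhr-88. Of 34 other basic helix-loop-helix genes, 1 was the gene of a chain (16.7% of the 6 with a summit), hlh-11, an AP4 homologue, where 1 of 4 summits scored 347. Of 27 bZIP genes, 2 were (11.8% of the 17 with a summit), skn-1 and zip-2, the highest zip-2 summit scoring 264 with ranks of 88 in replicate 1 and 142 in replicate 2.

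Of 122 zinc finger, T-box, SOX, forkhead and other transcription factor genes, 9 were genes of chains (7.38%, and 30% of the 30 with a summit): zfp-1, sma-9, fkh-7, fkh-9, daf-16, egl-44, klf-1, mef-2 and sptf-3. At the forkhead gene fkh-7 (chromosome IV), 3 intronic summits scored 73.8, 226 and 83.3, the highest with CACGTG. None of 98 homeobox and Hox genes, 11 GATA factor genes or 256 channel, receptor and synaptic genes was the gene of a chain. Only 7, 1 and 21 genes of these lists had been given any IDR summit, and with 0.941% and 6.27% as the shares over all genes, counts of 0 are near that background.

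Of 13 timing genes, 3 were genes of chains, lin-14, kin-20 and sup-26, which were 33.3% of the 9 with a summit, against 6.27% over all genes with a summit. At kin-20, which encodes a casein kinase 1 of the Doubletime type, 3 intronic summits scored 56.9, 183 and 85.3, and all were among the 3870 highest of both replicates. At sup-26, an RNA-binding protein gene, 5 summits scored 53.0, 213, 53.0, 54.7 and 153, upstream of the gene. The second ranked 171 in replicate 1 and 135 in replicate 2.

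Of 66 insulin, TOR and AMP kinase signalling genes, 3 were genes of chains (13.6% of the 22 with a summit, against 6.27% over all). At aak-2 (chromosome X), which encodes a catalytic subunit of AMP-activated kinase, the third of 4 summits lay in an intron 968 bp from the 5' end. It scored 389 and ranked 27 in replicate 1 and 30 in replicate 2, and the other 3 scored 85.0, 48.5 and 60.7. At smk-1, which acts with the FOXO factor DAF-16 in longevity, scores were 97.6, 36.3, 40.6 and 97.6. At daf-16 itself (chromosome I), 3 summits had nearly equal scores of 65.7, 75.3 and 75.3, and the first held CACGTG.

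Of 86 autophagy and lysosome genes, 3 were genes of chains (11.5% of the 26 with a summit, against 6.27% over all): epg-9 and the LC3/Atg8 family genes lgg-1 and lgg-2. The lgg-1 chain (chromosome II) had its highest summit 891 bp upstream, with a pooled score of 274 and ranks of 108 in replicate 1 and 63 in replicate 2. The lgg-2 chain (chromosome IV) had 2 high summits, 223 in an intron and 278 at 274 bp upstream, with ranks of 249 and 109 in replicate 1 and of 102 and 66 in replicate 2.

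Of 121 ribosomal protein and translation factor genes, 1 was the gene of a chain (0.826%), near the 0.941% over all protein-coding genes. Of the 55 given an IDR summit it was 1.82%, against 6.27% over all genes with a summit. The one was rps-28 (chromosome IV), with summits of 45.3, 40.7 and 207, the highest lying 437 bp upstream. Of 47 cytoskeleton, adhesion and extracellular matrix genes, 4 were genes of chains (19.05% of the 21 with a summit, against 6.27% over all). The chain of act-1 (chromosome V) covered the promoter windows of the neighbouring actin genes act-3, act-2 and act-1 in turn, with 6 summits of 36.9 to 81.8 over 9261 bp. Chains at the scaffold gene dlg-1, the myosin heavy chain gene unc-54 and the twitchin gene unc-22 had highest scores of 110.1, 47.6 and 48.0, each below 125, the median of the highest score over the 193 chains.

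The chains were spread over all chromosomes. Chromosome X had 45 chains with 165 members and chromosome III had 35 with 129, each 2.54 chains per Mb, against 1.92 over the genome. Chromosome I had 24, II had 28, IV had 26 and V had 35, at 1.49 to 1.83 per Mb. As a share of the IDR peaks of the chromosome, chain members were 22.5% on V (exact 95% interval 19.2 to 25.98%), 19.97% on III, 19.3% on X, 18.6% on II, 16.03% on IV and 13.5% on I (10.9 to 16.5%). Chromosome X thus had many chains per Mb but no larger a share of its peaks in chains than III or V. The longest chains were those of ppfr-1 on I, nhr-21 on II, Y39E4B.6 on III, hlh-30 on IV, T28B11.1 on V and lin-14 on X. CACGTG was at 25.5% of members on V and 26.1% on IV, and at 15.2 to 17.6% on the other chromosomes. On the autosomes, 279 of 547 chain members (51.01%, 46.7 to 55.3%) and 1036 of 2470 other peaks (41.9%, 40.0 to 43.9%) lay in the central part of the chromosome when its length was cut into 3 equal parts. The share was 43.6% over all IDR peaks and 47.5% in pairs. It was 50% in chains of 3, 41.7% in chains of 4, 40% in chains of 5 and 77.1% (64 of 83) in chains of 6 or more. The intervals treat summits of the same chain as independent, and the difference was not tested.

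**Figure D5:**
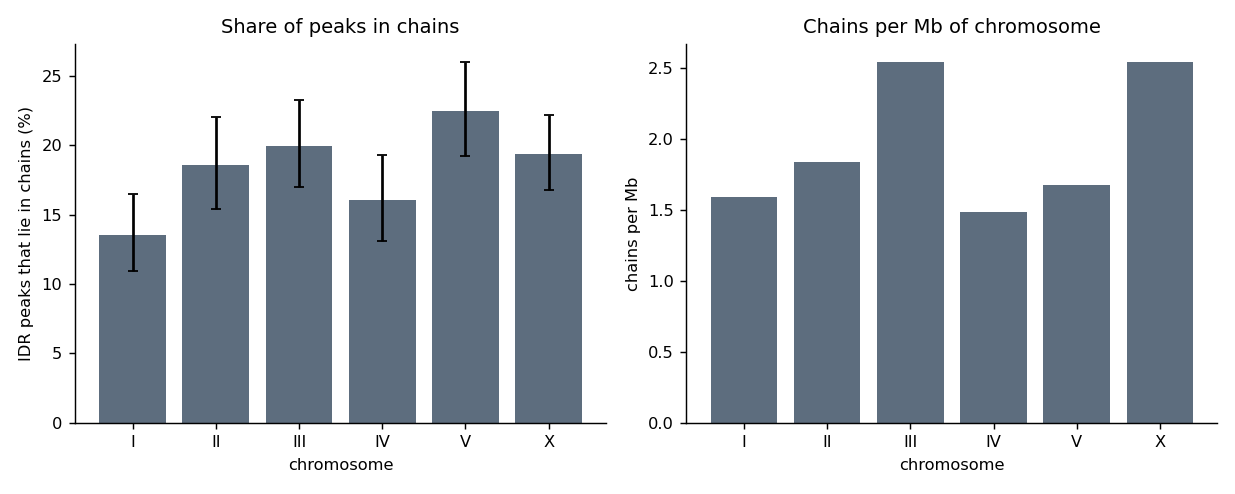
Left, share of IDR peaks (%) that lie in chains of 3 or more on each chromosome, with exact 95% intervals, and right, chains per Mb of chromosome. Chromosome V has the highest share, 22.5%, and chromosome I the lowest, 13.5%, while X and III have the most chains per Mb, 2.54 each.

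Small RNA genes were looked for beside each summit. A tRNA gene lay within 200 bp of 20 of 712 chain members (2.81%, exact 95% interval 1.72 to 4.31%) and of 191 of 3158 other peaks (6.05%, 5.24 to 6.94%), with 5.45% over all IDR peaks. A snoRNA gene lay by 12 chain members (1.69%) and 80 other peaks (2.53%), with 2.38% over all, and a microRNA gene by 2 chain members (0.281%) and 8 other peaks (0.253%), with 0.258% over all. None of these differences was tested. Of the 193 chains, 11 had a tRNA gene beside a summit, 12 a snoRNA gene and 2 a microRNA gene. The tRNA chains included those of F22B7.9, of dmd-6, a DM domain gene, and of hil-3, a histone H1-like gene with 4 tRNA genes beside its chain. At C30E1.4 (chromosome X), also with a tRNA gene, 4 summits lay downstream of the gene, and 1 of them scored 369 and ranked 52 in replicate 1 and 21 in replicate 2. The microRNA genes were cel-mir-52, beside a chain with a highest score of 100.3, and cel-mir-238, beside one with 55.1 and no summit among the highest of replicate 2. The snoRNA chains included din-1, T26A8.4, F37A8.5 and pas-5, a proteasome subunit gene, with highest scores of 265, 246, 145 and 152.

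No chain lay at mdl-1 or unc-119, the genes of the transgene and its marker allele. The nearest chain to mdl-1 was 485799 bp away and the nearest IDR summit 45250 bp away. The nearest chain to unc-119 was 81858 bp away, at sca-1.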

How the data were processed

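Per the deposited file inventories, the authors called relaxed peak lists on each replicate and on both pooled (30000 peaks each) and made the IDR list from these. A control is named for the pooled ce11 list and none for the replicate ce11 lists. For the aligner, the caller and the cutoff of the IDR step, no name, version or value is given in the sources used here. Each peak's score is the authors' own, on an unstated scale, and scores of different lists were not compared with each other. The q-values, deposited as −log10 per the file format, were not used, since 3801 IDR peaks share the highest value. Depth is unknown, as the lists hold no read counts.

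Summits were joined within 3000 bp, annotated with WBcel235 and Ensembl release 115 (6 chromosome names matched, 0 peaks beyond a chromosome end) and read from the RefSeq sequence of that build. Classes were assigned in the order promoter, coding, untranslated, intronic, intergenic. Chains named in the text were the 12 with most summits (ties by summed score), the 10 of highest summed score, the 5 with the highest summit, the longest per chromosome, up to 4 per gene list (13 lists) or small RNA class and up to 6 with repeated CACGTG. The genes with 2 chains, pqn-41 and the chains nearest mdl-1 and unc-119 were chosen after their values were seen. Members and lists were chosen with earlier results of these data known. No test was run: there is 1 group of 2 replicates, and peaks are not replicates. Exact Clopper-Pearson 95% intervals express counting error alone, and PCR copies of a read are not independent molecules. The chaining was tested on simulated data. Analyses used Python 3.11, SciPy 1.17.1 and matplotlib 3.10.9. Alternatives covered the joining distance, peak sets, windows, single replicates and the ce10 list.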

Additional observations from a re-analysis of the deposited data

How the results depend on the processing

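Among the higher-scoring 50% of IDR peaks there were 52 chains with 175 members, and with 2 times as many peaks taken from the pooled list 645 with 2690. Chains numbered 134 with 477 members when joined within 2000 bp, 268 with 1057 within 5000 bp, 209 with 770 in ce10 and 190 with 698 when overlapping peaks counted once. With the 3870 highest peaks of 1 replicate alone, chains numbered 174 to 203 and members 663 to 780. Of the 193 chains, 113 (58.5%) still had 3 chained summits without replicate 1 and 145 (75.1%) without replicate 2. CACGTG was at 12.4% of chain members and 6.84% of other peaks within 25 bp, at 25.4% and 15.5% within 100 bp, and at 26.9% and 16.1% among the higher-scoring 50%. The promoter share was 18.5% of chain members and 46.6% of other peaks with 500 bp upstream, and 39.3% and 67.95% with 2000 bp. Chain members' intergenic share was 41.9% and 25.7% with these windows. The promoter share of chain members was 24.5% with joining at 2000 bp, where the intronic share was 37.3%, and 31.7% at 5000 bp, where 58.5% of other peaks were promoter peaks. Wherever both groups were computed, chain members had the lower promoter share and the higher CACGTG share. The other peaks include the pairs, whose CACGTG share at the main setting, 17.9%, was nearly that of the chains. The cause of these shifts was not tested beyond the change of window, distance or list itself. No paired analysis was possible because the series has 1 group. A chain depends on where each list ends: lower peaks not in the IDR list could join or lengthen chains.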

Other observations

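Pairs of summits, just below the size of a chain, held some of the highest peaks of the list. The pair of highest summed score lay at gdh-1, the glutamate dehydrogenase gene on chromosome IV, with pooled scores of 679.7 and 97.4 at summits 797 bp apart, both with CACGTG. At ipla-6 (chromosome IV), the scores were 35.7 and 626, and at hif-1 (chromosome V), the hypoxia-inducible factor gene, they were 135 and 464, without CACGTG at either. At bcat-1 (chromosome X), which encodes a branched-chain aminotransferase, they were 50.2 and 467, and at ogt-1 (chromosome III), the O-GlcNAc transferase gene, 102 and 339. These pairs were chosen after their values were seen. The median distance within the 388 pairs was 1555 bp, and that between neighbours in chains was 1256 bp.

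The windows within 50 bp of chain members had a median GC content of 45.5%, and the windows of the other IDR peaks had 47.5%. RefSeq soft-masking covered a median of 5.94% of the chain members' windows and 14.9% of those of the other peaks.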
